A study of Mus musculus with 4 samples.

Results

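The comparison was between Cd73-negative (Cd73N) cells of Ezh2 conditional knockout (Ezh2-cKO) mouse retina and Cd73N cells of wild-type retina at postnatal day 12. Members were genes on numbered chromosomes whose quantification status was OK in both libraries and whose level reached 10 FPKM (a level of fragments per gene, normalised to exon length and to all fragments mapped in a library) in at least 1 of the 2 libraries. Of 23021 gene rows in the tables, 21552 had OK status in both libraries on a numbered chromosome, 6806 of these met the minimum, and after 179 rows of small RNAs were set apart and rows of the same symbol were summed there were 6619 genes. Each group held 1 library, so the differences below carry no replicate check and no test was run across genes. The 4 libraries of the series came from sorted retinal cells of ICR mice. Cd73, a surface enzyme encoded by Nt5e, is carried by rod photoreceptors and their precursors, so Cd73N cells are the mixed remainder of the retina and Cd73P cells are mainly rods. In the Ezh2-cKO, floxed Ezh2 was recombined by Cre under the Dkk3 promoter, which is active in retinal progenitor cells from early embryonic stages. Wild-type retinas came from normal littermates, and the number of retinas pooled for each library was not given in the sources used here. Because a sorted fraction mixes cell types, fewer cells of a type and less RNA per cell cannot be told apart in any of the values below.

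Ezh2 is the catalytic subunit of Polycomb repressive complex 2 (PRC2), which methylates lysine 27 of histone H3. The trimethylated mark is found on silent developmental regulators, among them Hox and other homeobox genes and the Cdkn2a tumour suppressor locus, and the complex PRC1 binds to it. In the retina, neurons and Müller glia descend from the progenitors in which the Cre was active, while microglia and vascular cells do not.

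The labels were checked first. Ezh2 (protein coding, mm9 chromosome 6, 47480273 to 47545029) had 14.1 FPKM in wild-type Cd73N cells against 15.9 FPKM in the library labelled Ezh2-cKO. This gene-level FPKM went against the label, and it counts reads of every exon, so loss of a floxed exon would not be seen in it. Nt5e was at 0.84 and 0.61 FPKM in the same libraries against 125.4 and 122.6 FPKM in Cd73P, so the fraction label held. The libraries also differed in sex-linked transcripts, with Xist at 52.2 FPKM in wild type and 240 FPKM in the library labelled Ezh2-cKO, and Ddx3y at 11.6 and 0.70 FPKM. The genotype and the sex of the pooled retinas cannot be told apart, and genes on X and Y are not members.

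More members were higher than lower in the library labelled Ezh2-cKO. At a 1.5-fold difference of FPKM + 1, the threshold the study used, 772 of 6619 genes differed, of which 538 were higher (8.13% of all members) and the rest lower (3.54%). Differences below are given as log2(FPKM + 1) in the library labelled Ezh2-cKO minus that in wild type. At 2-fold 316 genes were higher and 38 lower, at 4-fold 89 and 4, and at 8-fold 14 and 0. The bulk of genes lay on the other side, since 4600 of 6619 differences were below 0 and the median was -0.15, with a 25th percentile of -0.31 and a 75th of 0.067. FPKM was not scaled between libraries. When the libraries were scaled to a common median ratio, which shifted all differences by 0.16, 741 of 6899 genes were higher and 103 lower. The higher genes then made up 87.8% of calls instead of 69.7%. Scaling to the FPKM sum gave 720 and 109 of 6862 genes, a share of 86.9%. The minimum was applied after scaling, so both counts include added genes that passed only through the scaled library labelled Ezh2-cKO. The part of these added genes in the shares was not tested. Rises are therefore given against a centre slightly below 0, and small falls are given with their scaled counts. Counts in the lists below are to be read beside the 8.13% higher and 3.54% lower over all members.

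The direction of the differences followed the level of the gene. Among 390 genes with a mean of the 2 libraries under 10 FPKM, 31.5% were higher and 5.64% were lower, and the median difference was 0.21. Such genes entered only because 1 library passed the minimum, so a difference was built into their selection. Any member under 10 FPKM in 1 library likewise entered only through the other, which fixed the direction of its difference. This holds for each such gene named below, also where it is not stated again. Among 3712 genes at 10 to 30 FPKM the shares were 7.52% and 2.45%. Among 174 genes at 300 FPKM and over, 4.60% were higher and 9.20% lower, with a median of -0.38. Genes just inside the minimum, with a higher value of 10 to 11 FPKM, had a median of -0.018 (374 genes), and those just outside it, at 9 to 10 FPKM, had a median of 0.018 (419 genes).

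**Figure D1:**
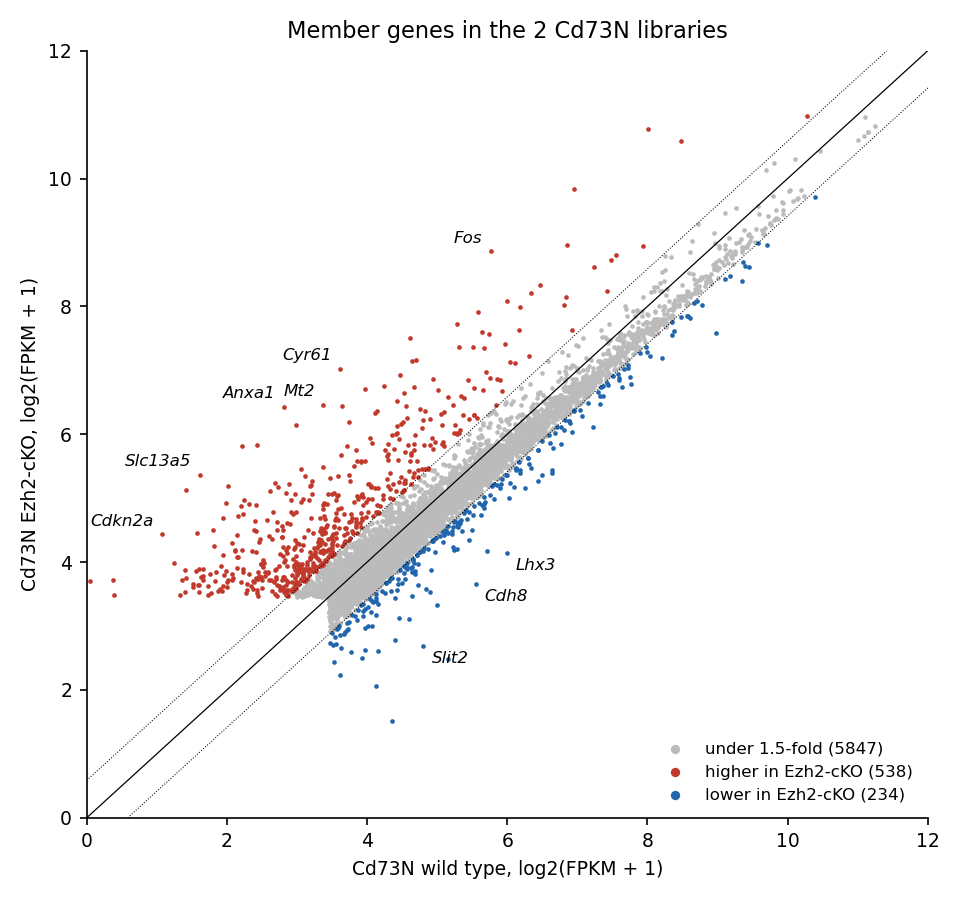
Level of each of the 6619 members in Cd73N wild type (x axis) and in the Cd73N library labelled Ezh2-cKO (y axis), both as log2(FPKM + 1), with the line of equality and dotted lines at 1.5-fold. The 538 higher genes spread far above the line, with 14 genes past 8-fold, while the lower genes stay close to it, and the dense cloud lies slightly below equality.

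Cell type markers differed between the libraries. Of 35 Müller glia marker members 32 were higher and 1 was lower, and their summed level was 2518 FPKM in wild type and 9318 FPKM in the library labelled Ezh2-cKO. Of 30 bipolar marker members 15 were lower and none higher, with sums of 4577 and 2695 FPKM. Of 8 microglial members 4 were higher, with sums of 144.6 and 218.5 FPKM, and the defining microglial genes P2ry12 and Cx3cr1 were below the minimum at 4.49 and 8.09 FPKM and at 3.78 and 6.24 FPKM. Of 4 endothelial members 2 were higher, Kdr and Flt1, and Esam was lower, while the defining genes Pecam1 (0.93 and 1.07 FPKM) and Cldn5 (3.08 and 5.09 FPKM) were below the minimum. Both astrocyte members were higher, Gfap and Agt, and all 3 amacrine members were higher. Of 2 ganglion cell members Thy1 was higher at 6.52 and 30.3 FPKM. None of 6 pericyte and none of 2 horizontal cell members passed the threshold. Of 28 rod members 4 were lower, and of 13 cone members 3 were higher. Of 4 red blood cell members Hbb-b2 was lower, a value that is uncertain beside its near copy Hbb-b1. No marker of pigment epithelium or lens was a member. The part of these cell types in the values of the lists below was not tested. Of the 538 higher genes 47 were themselves in a marker list, 160 in another list and 331 in none, and of the lower genes 22, 69 and 143. Without the marker genes, 491 of 6480 genes (7.58%) were higher and 212 (3.27%) lower.

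The 15 largest rises among genes outside the cell type marker lists held several functions. Slc13a5, a plasma membrane citrate transporter (chromosome 11, 72055496 to 72080106), rose from 2.06 to 40.2 FPKM, a difference of 3.75 with a counting standard error (SE) of 0.076. The SE rests on the deposited bounds and may be off, since Slc13a5, like 47.5% of members, lay above its own upper bound in at least 1 of the 2 libraries. Il33, which encodes a nuclear alarmin cytokine (chromosome 19, 29999604 to 30035205), rose from 4.40 to 55.8 FPKM. Anxa1, a calcium-dependent phospholipid-binding protein (chromosome 19, 20447924 to 20465161), rose from 6.07 to 85.4 FPKM. Cdkn2a rose from 1.10 to 20.7 FPKM. These genes went from low to clear expression and not from an existing high level. Others were the immediate early genes Fosb, Fos, Zfp36 and Cyr61, the paired box gene Pax8, the metallothionein Mt2, the fibulin family gene Efemp1 at 2.96 and 29.5 FPKM, the synaptotagmin gene Syt15 at 1.96 and 21.0 FPKM, Igfbpl1, and the pseudogene Pisd-ps1. Pisd-ps1, at 0.029 and 12.1 FPKM, is uncertain because its reads can be shared with copies elsewhere in the genome.

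The 15 largest falls were smaller in size. Slit2, a secreted axon guidance ligand (chromosome 5, 48374394 to 48697017), fell from 26.96 to 5.46 FPKM, a difference of -2.11 with a counting SE of 0.037. Cdh8, a type II cadherin (chromosome 8, 101552669 to 101940357), fell from 46.2 to 11.6 FPKM. Lhx3, a LIM homeobox factor (chromosome 2, 26055732 to 26062076), fell from 62.9 to 16.6 FPKM. Rprm, a gene linked to cell cycle arrest, fell from 30.9 to 9.06 FPKM. Tnnc1, a calcium-binding troponin subunit, fell from 20.1 to 5.84 FPKM, and the cardiac actin gene Actc1 fell from 20.9 to 7.69 FPKM. Tle6, of the Groucho corepressor family, fell from 23.3 to 7.65 FPKM. Gfra1, the co-receptor for the ligand GDNF, fell from 12.7 to 5.06 FPKM. The others were Dusp4, Zfhx4, Hcn3, Cabp1, the noncoding RNA A530058N18Rik, Cdk5rap1 and Rps27, the last of which has many processed copies and is uncertain.

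**Figure D2:**
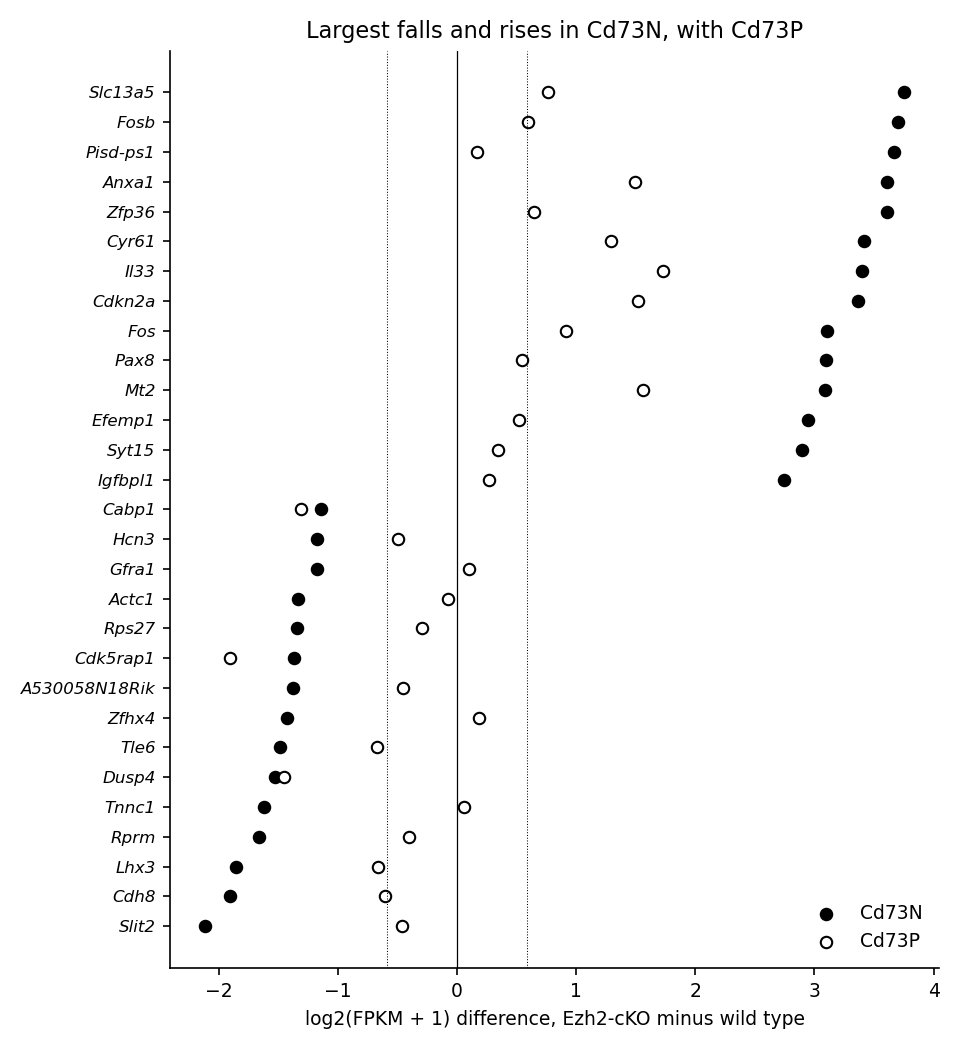
Difference in log2(FPKM + 1), Ezh2-cKO minus wild type, for 14 of the 15 largest rises and the 15 largest falls in Cd73N outside the marker lists. Filled points are Cd73N and open points Cd73P, with dotted lines at 1.5-fold. All 14 rises have a smaller difference in Cd73P, and among the falls Cdk5rap1 and Cabp1 have the larger fall in Cd73P.

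AP-1 and other immediate early genes rose in number. These genes are switched on within minutes of growth factors, depolarisation or stress, and AP-1 is the dimeric factor that Fos and Jun proteins form. Of 6 AP-1 genes that were members, 4 rose and none fell, with a median difference of 2.31. Fosb rose from 1.67 to 33.9 FPKM, Fos from 53.3 to 465 FPKM, Junb from 17.9 to 107 FPKM and Jun from 20.4 to 90.6 FPKM. The remaining members, Jdp2 and Jund, differed by less than 1.5-fold. Of 26 other immediate early genes, 16 rose and 1 fell, a share of 61.5% against 8.13% over all members, and the median was 1.29. Zfp36, which destabilises AU-rich messenger RNAs (chromosome 7, 29161803 to 29164247), rose from 3.63 to 55.6 FPKM. Its relative Zfp36l2 rose from 5.45 to 36.9 FPKM. Cyr61, a secreted matricellular protein (chromosome 3, 145309935 to 145312949), rose from 11.3 to 130 FPKM, and Socs3, an inhibitor of cytokine receptor signalling, from 3.74 to 30.4 FPKM. Klf10 was the gene that fell, from 24.7 to 13.5 FPKM. None of these 32 genes stands in a cell type marker list.

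Promoter sequence was set beside these rises because immediate early genes are classically driven by the CArG box, which the serum response factor binds, and by the cyclic AMP element TGACGTCA. RefSeq promoters (GRCm38.p6, not the build of the expression tables) were matched by symbol for 4765 of 6619 members and the 250 bases before the annotated start were searched on both strands. The cyclic AMP element stood in 4 of 17 matched immediate early genes outside AP-1 (23.5%) against 1.77% of 27025 symbols with a promoter. The CArG box stood in 2 of 17 (11.8%) against 1.62%. These symbols include genes that are not members, and the share over all members is not given here. The AP-1 element TGANTCA stood in 1 of the 17 and in 7.82% of all symbols with a promoter. None of the 6 matched AP-1 genes had any of these 3 motifs in this window. The promoter of Zfp36 is printed with its CArG box in capitals, and those of Btg2, Ppp1r15a and Plk2 with the cyclic AMP element in capitals, because they carry a match and their genes rose. Each runs 5′ to 3′ on the strand of the gene, and the last 3 genes were chosen by the motif after their values were seen.
Zfp36 (chr7:28379229-28379478, minus strand): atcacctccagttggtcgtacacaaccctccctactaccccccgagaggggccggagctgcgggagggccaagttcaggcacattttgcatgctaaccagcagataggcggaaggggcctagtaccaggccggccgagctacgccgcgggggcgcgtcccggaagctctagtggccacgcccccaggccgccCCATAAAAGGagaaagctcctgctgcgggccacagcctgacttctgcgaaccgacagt
Btg2 (chr1:134079156-134079405, minus strand): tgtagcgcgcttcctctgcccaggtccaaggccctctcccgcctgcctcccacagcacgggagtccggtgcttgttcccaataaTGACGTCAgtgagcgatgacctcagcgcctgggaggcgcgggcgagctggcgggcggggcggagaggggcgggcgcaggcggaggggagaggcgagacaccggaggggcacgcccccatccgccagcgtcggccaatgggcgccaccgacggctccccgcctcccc
Ppp1r15a (chr7:45526269-45526518, minus strand): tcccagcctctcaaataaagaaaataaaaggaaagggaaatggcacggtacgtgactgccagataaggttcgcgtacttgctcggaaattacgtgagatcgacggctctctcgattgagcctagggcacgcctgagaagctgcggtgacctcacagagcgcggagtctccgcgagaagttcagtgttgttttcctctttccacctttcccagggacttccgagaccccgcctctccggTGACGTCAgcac
Plk2 (chr13:110394794-110395043, plus strand): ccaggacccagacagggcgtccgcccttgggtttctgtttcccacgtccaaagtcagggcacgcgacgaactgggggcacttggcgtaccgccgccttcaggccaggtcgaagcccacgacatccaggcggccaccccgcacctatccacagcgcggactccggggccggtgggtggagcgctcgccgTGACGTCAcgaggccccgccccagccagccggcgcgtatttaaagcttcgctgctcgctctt
Btg2, an antiproliferative gene, was at 52.4 and 190 FPKM, Ppp1r15a, a phosphatase subunit of the stress response, at 12.5 and 37.6 FPKM, and the kinase gene Plk2 at 6.26 and 23.4 FPKM. A motif match describes the sequence and does not show binding in these cells. Among called members with a promoter the cyclic AMP element stood in 15 of 397 higher genes (3.78%) and in 2 of 158 lower genes (1.27%).

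**Figure D3:**
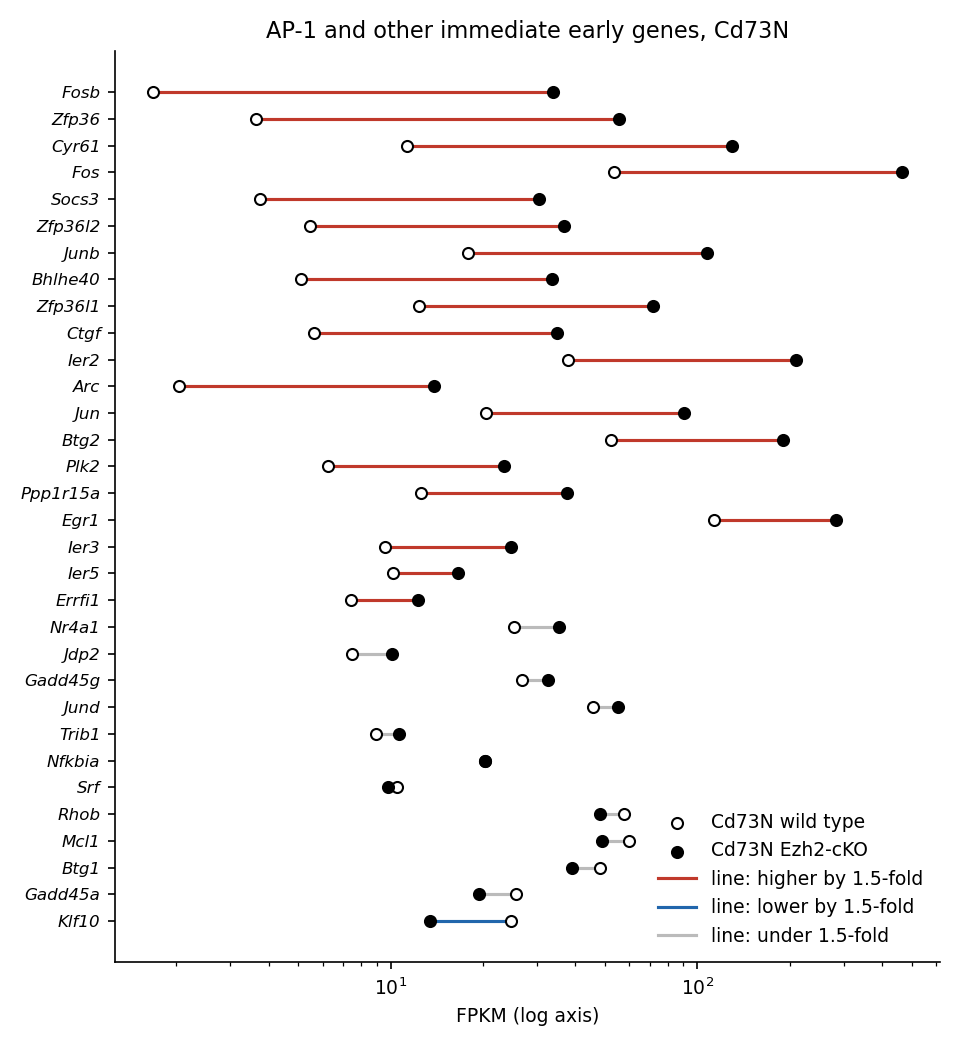
FPKM on a log axis of the 6 AP-1 genes and 26 other immediate early genes in Cd73N wild type (open) and the Cd73N library labelled Ezh2-cKO (filled), ordered by difference, with the joining line coloured by the 1.5-fold threshold. The upper 20 genes rise, from Fosb with the largest difference to Errfi1, and Klf10 at the bottom falls.

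Transcription factors that hold cells in a glial or progenitor state were the next group. Id proteins bind and inactivate bHLH activators, and Hes proteins are repressors downstream of Notch. Of 7 Id, Hes and Hey members, 5 rose and none fell. Id2 rose from 23.9 to 140 FPKM, Id1 from 25.02 to 142 FPKM, Id3 from 46.9 to 240 FPKM and Hes1 from 16.2 to 80.0 FPKM. Id1, Id3 and Hes1 are also in the Müller glia list. Of 6 Sox members 3 rose, with Sox2 at 12.1 and 55.3 FPKM, Sox8 at 5.93 and 20.1 FPKM and Sox9 at 3.99 and 13.1 FPKM. Sox2 and Sox9 are in the Müller glia list, and the other 4 members had a median of 0.034. Of 6 nuclear factor I and Nr2f members 2 rose, Nfix from 9.81 to 29.2 FPKM and Nfib from 10.3 to 17.7 FPKM. Among 9 Notch pathway members, Lfng, a glycosyltransferase that modifies Notch receptors, rose from 4.57 to 19.6 FPKM. The feedback inhibitor Nrarp rose from 7.94 to 21.6 FPKM and the receptor gene Notch1 from 3.86 to 10.5 FPKM, and none of the 9 fell. The median of the 9 was -0.11, beside -0.15 for all members, and 4 of them were above 0. Sox8, Sox9, Nfix, Lfng, Nrarp and Notch1 were under 10 FPKM in wild type and entered only through the other library, so their direction was fixed.

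Homeobox genes moved in both directions. Of 23 members from the LIM, Irx, Pax and related homeobox families, 6 rose and 7 fell. Pax8 (chromosome 2, 24276080 to 24331086) rose from 0.31 to 10.2 FPKM, and stood at 0.10 and 0.61 FPKM in Cd73P. Pax6, a regulator of eye development that amacrine cells and Müller glia retain, rose from 20.4 to 63.5 FPKM, and the eye field gene Rax from 39.4 to 95.4 FPKM. The falls were Irx6 from 34.7 to 4.61 FPKM, Lhx3, Zfhx4 from 14.3 to 4.69 FPKM, Vsx1 from 85.5 to 37.5 FPKM and 3 smaller ones. Irx6, Vsx1 and 2 more of the 7 genes that fell are in the bipolar list.

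Polycomb genes themselves showed no call. None of 8 members for PRC2 and H3K27 demethylases and none of 14 PRC1 members passed 1.5-fold, and the list medians were -0.085 and -0.18. The PRC2 subunit gene Suz12 was at 40.6 and 34.4 FPKM, Rbbp4 at 93.6 and 69.4 FPKM, and the PRC1 gene Bmi1 at 58.3 and 55.9 FPKM. The 39 Hox genes of the table, which PRC2 keeps silent outside the trunk, all lay below the minimum of 10 FPKM. Their summed level was 0.065 FPKM in wild type and 4.20 FPKM in the library labelled Ezh2-cKO. Of the 39, 33 were listed at 0 in wild type and 21 in the other library, and 14 were at 0 in wild type and above 0 in the other. The same count over all low genes is not given here and depth is unknown, so the 14 cannot be read as particular to Hox genes. Hoxc4, at 0.012 and 2.04 FPKM, and Hoxc5, listed at 0 and at 1.01 FPKM, made up most of the sum, and both were chosen after their values were seen.

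Cell cycle inhibitors included the classical Polycomb target. Of 16 members among cyclin-dependent kinase inhibitors, cyclins and p53-Rb genes, 5 rose and none fell, and the median was 0.025. Over all members 8.13% were higher. With a minimum of 30 FPKM 4 members were left, of which 1 was higher, with a median of -0.18. Cdkn2a (chromosome 4, 88920377 to 88940523), which encodes the p16 and p19 tumour suppressors, differed by 3.37 with a counting SE of 0.14. Cdkn2b, its neighbour and chosen after its value was seen, was below the minimum at 0.47 and 6.31 FPKM. Cdkn1a, a p53 target that encodes p21, rose from 9.88 to 32.5 FPKM, and Cdkn2c, which encodes p18, from 9.65 to 22.4 FPKM. Trp53inp1, another p53 target, rose from 7.16 to 14.6 FPKM. Cdkn2a, Cdkn1a, Cdkn2c and Trp53inp1 were under 10 FPKM in wild type and entered only through the other library, so their direction was fixed. The 2 proliferation markers that were members did not pass the threshold, with Pcna at 78.5 and 74.97 FPKM and Mcm7 at 16.4 and 11.6 FPKM.

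Among signalling pathways, Hedgehog was the list in which each member rose. Hedgehog ligands bind the receptor Ptch1 together with co-receptors and thereby release Smo. The co-receptor gene Cdon rose from 10.7 to 30.3 FPKM, Ptch1 from 4.98 to 13.2 FPKM, the co-receptor gene Gas1 from 16.2 to 34.6 FPKM and Smo from 8.13 to 16.8 FPKM. These 4 were the members out of 14 pathway genes in the table, and 8.13% of all members were higher. Ptch1 and Smo were under 10 FPKM in wild type and entered only through the other library, so their direction was fixed by selection. The ligand gene Shh stood at 0.026 and 0.022 FPKM and the target gene Gli1 at 0.16 and 0.43 FPKM, both far below the minimum. Of 16 members for FGF, EGF, PDGF and Sprouty signalling, 6 rose and 1 fell. Vegfa, the vascular growth factor, rose from 36.5 to 87.2 FPKM, the receptor gene Fgfr1 from 3.04 to 12.2 FPKM and the feedback inhibitor Spry1 from 4.80 to 14.8 FPKM, whereas Igf1 fell from 13.6 to 8.53 FPKM. Of 20 TGF-beta and BMP members 3 rose and 2 fell. The type I receptor gene Bmpr1b rose from 1.52 to 10.2 FPKM and the transducer gene Smad3 fell from 22.9 to 14.9 FPKM. Of 8 Wnt members 2 rose, the receptor gene Fzd5 from 8.04 to 30.5 FPKM and the Müller marker Dkk3 from 122.7 to 916 FPKM. Dkk3 is also the gene whose promoter drove the Cre. Of 8 Hippo-YAP members 3 rose, the target genes Cyr61 and Ctgf (5.62 and 34.9 FPKM), which are also immediate early genes, and the factor gene Tead2 (6.04 and 12.6 FPKM). Dual-specificity phosphatases, which switch off MAP kinases, split within the family. Dusp1 rose from 14.6 to 104 FPKM and Dusp6 from 13.0 to 29.8 FPKM, while Dusp4 fell from 51.2 to 17.1 FPKM and Dusp26 from 71.5 to 42.3 FPKM, and 9 of 13 members passed in neither direction.

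Lists of secreted and membrane proteins held many rises, against the 8.13% of all members that were higher and the 3.54% that were lower. Of 14 collagen, laminin and basement membrane members, 7 rose and none fell. All 3 genes of the collagen IX heterotrimer were among them, Col9a1 from 49.0 to 193 FPKM, Col9a2 from 3.45 to 25.3 FPKM and Col9a3 from 11.02 to 32.0 FPKM. Their fibril partner Col2a1 rose from 19.8 to 53.3 FPKM. Of 5 annexins 3 rose, and Anxa6 at 11.9 and 22.1 FPKM and Anxa5 at 11.7 and 20.4 FPKM rose far less than Anxa1. Of 4 S100 calcium-binding proteins 3 rose, S100a1 from 13.5 to 47.2 FPKM, S100a16 from 20.5 to 69.0 FPKM and S100a10 from 11.1 to 22.2 FPKM. Insulin-like growth factor binding proteins gave 3 rises in 5, with Igfbpl1 at 2.84 and 24.8 FPKM, Igfbp2 at 8.25 and 37.6 FPKM and Igfbp5 at 12.6 and 26.0 FPKM. Of 7 members for matrix proteases and their inhibitors, the inhibitor gene Timp3 rose from 9.40 to 43.7 FPKM, the membrane-type protease gene Mmp14 from 10.5 to 33.0 FPKM and Adamts1 from 3.32 to 17.2 FPKM. Of 14 tetraspanins 4 rose, led by Cd9 at 44.5 and 164 FPKM, and 1 fell. Of 22 cathepsin, cystatin and lysosome members 5 rose and none fell, and of 4 integrins 1 rose and none fell. Among 9 proteoglycan members 2 rose (22.2%) and 2 fell (22.2%), with a median of -0.27. Of 8 claudin and connexin members none rose and 1 fell.

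Most gliosis and cytokine-response members rose, while no interferon-response member passed the threshold. Of 8 gliosis and cytokine-response members, out of 22 such genes in the table, 7 rose, where 8.13% of all members were higher. Gfap, the intermediate filament of reactive Müller glia and astrocytes, rose from 2.86 to 11.4 FPKM. Cebpd, a cytokine-induced transcription factor, rose from 4.32 to 28.8 FPKM, and Cp, the copper-binding ferroxidase ceruloplasmin, from 22.1 to 98.7 FPKM. Of 7 antigen-processing members, B2m rose from 33.3 to 55.4 FPKM and H2-K1 from 5.97 to 16.1 FPKM, the latter uncertain because class I genes share sequence. Among the 3 interferon-response members, Ifitm3 was at 22.8 and 23.4 FPKM. Gfap, Cebpd, H2-K1 and the gliosis list member Socs3 were under 10 FPKM in wild type. They entered only through the other library, so their direction was fixed.

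Several metabolism lists held rises. Metallothioneins bind zinc and copper, and Mt2 rose from 9.34 to 87.1 FPKM, Mt1 from 23.5 to 182 FPKM and Mt3 from 26.8 to 73.6 FPKM. Together with Cp and 1 more gene they made 5 rises among 10 metal handling members, and none fell. Of 8 aldehyde dehydrogenases 6 rose. Aldh1a1, a retinaldehyde dehydrogenase that makes retinoic acid, rose from 24.5 to 105 FPKM and its close copy Aldh1a7 from 2.15 to 12.8 FPKM, a value that reads from Aldh1a1 could share. Cyp26a1, which degrades retinoic acid and is in the Müller list, rose from 3.04 to 35.4 FPKM. Of 28 glutathione and antioxidant members 7 rose and 1 fell, with a median of -0.059. Gstt1 rose from 6.42 to 36.3 FPKM and Prdx6 from 38.7 to 165 FPKM, while Gstm7 fell from 63.9 to 31.1 FPKM. Of 12 sodium and calcium pump members 5 rose, among them the sodium pump beta subunit Atp1b3 from 32.4 to 79.0 FPKM and the regulator gene Fxyd1 from 15.6 to 60.8 FPKM. Of 21 cholesterol and fatty acid synthesis members 4 rose and none fell, and of 5 carbonic anhydrases 2 rose, both of them marker genes.

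Glycolysis and lactate transport genes had calls in both directions. The glucose transporter gene Slc2a1 rose from 49.3 to 102 FPKM, the lactate transporter gene Slc16a1 from 21.8 to 71.8 FPKM and the aldolase gene Aldoc from 58.9 to 114 FPKM. Pkm2 fell from 1347 to 836 FPKM, Pgam1 from 672 to 395 FPKM and Gpi1 from 332 to 196 FPKM. The second lactate transporter gene, Slc16a3, fell from 29.1 to 13.7 FPKM. With 3 rises and 4 falls among 19 members the median was -0.32, and after median scaling there were 4 rises and 3 falls.

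Genes of the core machinery lay together below 0 with few calls. None of 75 cytosolic ribosomal protein genes was above 0, and 74 of them lay below the median of all members. Their median was -0.41, beside -0.33 for all members at 100 to 300 FPKM and -0.38 for those at 300 FPKM and over, groups that include ribosomal protein genes. Of the 75 genes, 2 passed the threshold, Rps27 and Rpl30, the latter at 59.4 and 36.3 FPKM. The respiratory chain and ATP synthase list had a median of -0.32 over 79 members, the proteasome -0.35 over 33 and translation factors -0.29 over 50. Median scaling moved these medians to -0.25, -0.16, -0.18 and -0.13 in the same order, still below 0. Within the respiratory chain, 2 genes rose while the other 77 lay below 0, and both encode alternative isoforms of cytochrome c oxidase subunits. Cox6b2 rose from 14.1 to 46.4 FPKM and Cox4i2 from 40.8 to 94.0 FPKM. Of 55 chaperone members 1 rose, the small heat shock protein gene Cryab from 26.1 to 83 FPKM, and 1 fell, Hspa5 from 190 to 122.6 FPKM. Hspa5 is the endoplasmic reticulum chaperone, and with Calr, Manf and Creld2 it made 4 falls among 19 members for the unfolded protein and integrated stress responses, where Psat1 rose. After median scaling none of those 4 falls remained past the threshold.

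**Figure D4:**
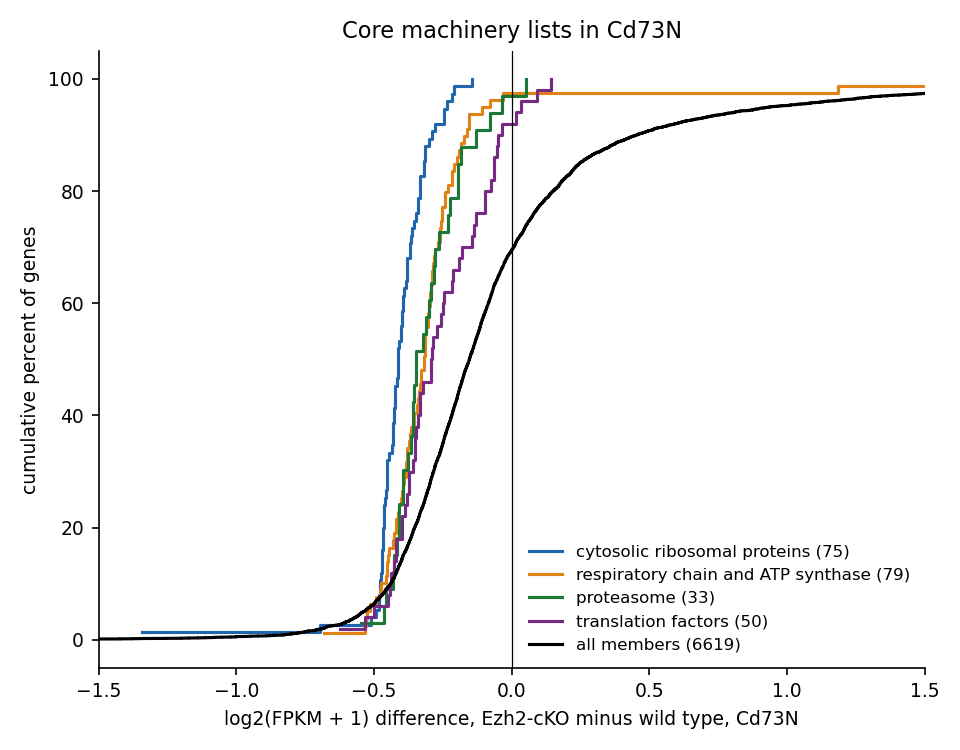
Cumulative percent of genes by difference in log2(FPKM + 1), Ezh2-cKO minus wild type in Cd73N, for 4 core machinery lists and all 6619 members. The ribosomal protein curve lies wholly below 0 around a median of -0.41, and the all-member curve crosses 50% at -0.15 with a long tail above 0 that the core lists lack, apart from the 2 cytochrome c oxidase isoform genes.

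Falls were also found among receptor, channel and calcium-binding genes of neurons, where 3.54% of all members were lower and 8.13% higher. Of 10 GABA and glycine receptor members 3 fell and none rose. Gabrr1 fell from 199 to 106 FPKM and Gabrr3 from 55.3 to 30.7 FPKM, both subunits of GABA receptors that bipolar cells carry. After median scaling 2 of the 10 were past the threshold. Gabrr1 is in the bipolar list, and without marker genes 2 of 8 members fell. Calcium-binding EF-hand proteins split, with 4 falls and 3 rises among 16 members. Scgn fell from 501 to 191 FPKM, Cabp1 from 89.6 to 40.1 FPKM, Cabp2 from 42.9 to 19.3 FPKM and Cabp5 from 327 to 187 FPKM, while Efhd1 rose from 6.96 to 26.7 FPKM. Scgn and Cabp5 are in the bipolar list, and without marker genes 2 of 13 members fell. Among 33 potassium channel members 3 fell (9.09%) and 2 rose (6.06%), and the median was -0.19, beside -0.15 for all members. The falls were the pacemaker channel genes Hcn3 (24.1 and 10.1 FPKM) and Hcn4 (10.5 and 4.39 FPKM) and the leak channel gene Kcnk3. Hcn4 entered only through the wild-type library, so its direction was fixed by selection. The glial inward rectifier gene Kcnj10 rose from 3.99 to 29.0 FPKM and Kcnk1 from 14.4 to 31.5 FPKM. Gjd2, which encodes the neuronal gap junction protein connexin 36, fell from 149 to 68.4 FPKM. Neuropeptide genes split too, since the prodynorphin gene Pdyn rose from 7.33 to 43.1 FPKM and Npy from 8.13 to 35.7 FPKM while the granin genes Scg2 and Chga fell from 216 to 119 FPKM and from 116 to 73.3 FPKM.

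Genes of adhesion and guidance had calls in both directions. Neurexophilins are secreted ligands of neurexins. Nxph1 (chromosome 6, 8900019 to 9198578), which is in the bipolar list, fell from 19.5 to 1.85 FPKM, Nxph4 from 25.5 to 11.5 FPKM and Nxph3 from 24.8 to 13.1 FPKM. These were the falls among 20 members for neurexin-type synaptic adhesion, of which Nlgn1 and Lrrc4c rose and the median was -0.079. Nxph2 was below the minimum, at 0 and 0.053 FPKM. In the guidance list of 14 members, Slit2 and the netrin relative Ntng1 (21.7 and 11.8 FPKM) fell. Ntn4 rose from 1.87 to 11.2 FPKM, Sema5a from 4.62 to 14.6 FPKM and the receptor gene Plxnb1 from 7.65 to 13.8 FPKM. Of 12 cadherin and catenin members, Cdh8 fell while Cdh2, which encodes N-cadherin, rose from 46.4 to 75.1 FPKM. Of 6 Eph and ephrin members the receptor gene Epha3 fell from 14.3 to 7.91 FPKM and the ligand gene Efnb2 rose from 10.5 to 22.5 FPKM. Ntn4, Sema5a, Plxnb1 and Nlgn1 were under 10 FPKM in wild type and entered only through the other library. Slit2, Nxph1 and Epha3 were under 10 FPKM in the library labelled Ezh2-cKO and entered only through wild type. The direction of these genes was fixed by selection.

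**Figure D5:**
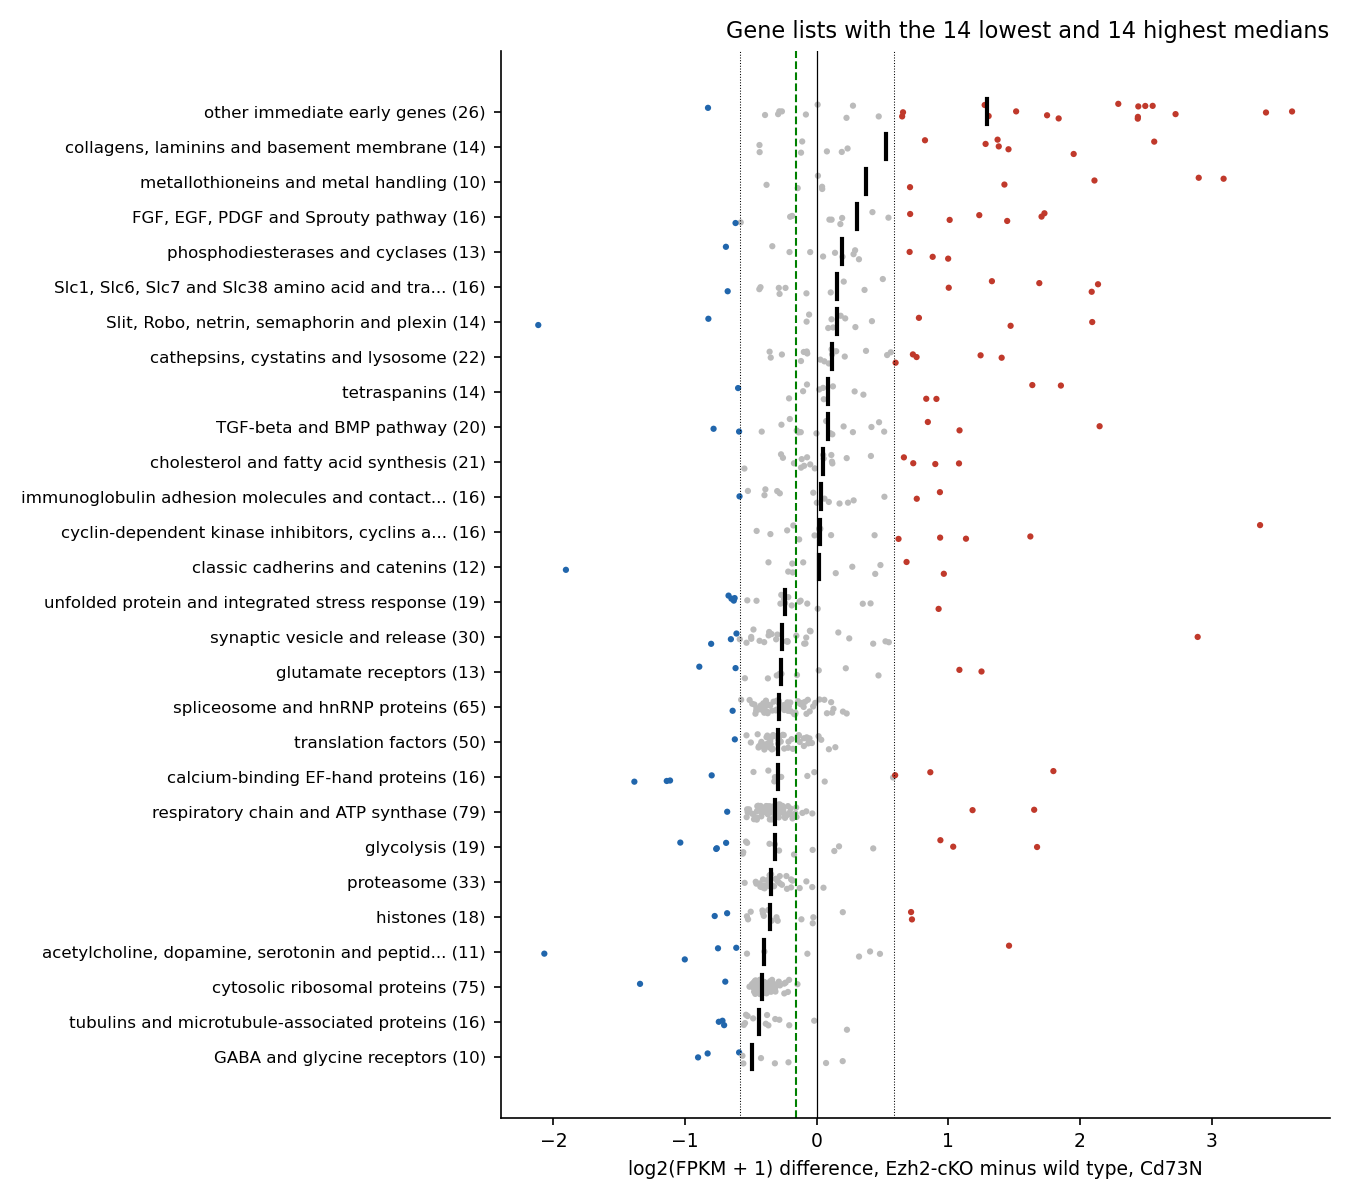
Difference in log2(FPKM + 1), Ezh2-cKO minus wild type in Cd73N, of every member of the lists with 10 or more members that have the 14 lowest and 14 highest medians (number of members in brackets). Points are genes (red higher, blue lower by 1.5-fold), black bars list medians, dotted lines 1.5-fold and the green dashed line the median of all members at -0.15. The immediate early list stands at the top with a median of 1.29, and the GABA and glycine receptor list at the bottom with -0.49.

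The Cd73P libraries gave the level of the same genes in rods, with 1 library each as well. Of the 538 genes higher in Cd73N, 106 were also at least 1.5-fold higher in Cd73P, where 2.9% of 6610 members with a value were higher, and 21 were at least 1.5-fold lower, where 5.54% were lower. Of the same 538 genes 128 were under 1 FPKM in both Cd73P libraries. Of the lower genes, 81 were also lower in Cd73P and 3 were higher. Fos was at 25.7 and 49.5 FPKM in Cd73P and Junb at 12.0 and 15.4 FPKM. Dusp1, at 17.1 and 17.3 FPKM there, was at about the same level in both genotypes. Slc13a5 was at 0.11 and 0.88 FPKM and Anxa1 at 0.40 and 2.95 FPKM in Cd73P. The ribosomal protein list had a median difference of -0.13 in Cd73P, the proteasome list -0.011 and the respiratory chain list -0.0043, all closer to 0 than in Cd73N.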

How the data were processed

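Poly(A) RNA of trypsinised, Cd73-stained and sorted retinal cells was sequenced as 36-base single-end reads. The authors aligned reads to mm9 with TopHat 2.0.8b and computed the deposited FPKM values with Cufflinks 2.1.1 on RefSeq genes, with bounds and a status per row. Strand use was not given in the sources used here. FPKM was not scaled between libraries and absolute depth is unknown. Coordinates are the listed starts plus 1, since 10238 of 21354 symbols then start where GENCODE does and 642 do otherwise.

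Rows were joined by symbol and locus. Differences were taken on log2(FPKM + 1), which understates changes of low genes, and called at 1.5-fold. Counting SE came from the deposited bounds (width taken as 4 SE). It was 0.047 at the median and covers counting error only, and 47.5% of members lay above their own upper bound in at least 1 of the 2 libraries, so that these SE may be off. The steps were tested on simulated data.

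Genes named were the label checks, the 15 largest rises and falls outside marker lists, up to 4 per list and direction (2 of highest mean level where fewer than 2 passed) and up to 3 per marker list, and any gene outside this rule is marked in the text. Some genes that the rule named are not reported here. Members and lists were chosen with earlier results of these data known. Alternatives covered pseudocount, scaling, fold, minimum level, multi-row symbols, markers and bounds. Python 3.11.15 and pandas 2.3.3 were used.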

Additional observations from a re-analysis of the deposited data

Results flagged for a closer look

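The 9 genes named here passed 1.5-fold in opposite directions in the Cd73N and the Cd73P libraries, and the differences between the fractions were not tested, since there was 1 library for each. Jun had a difference of 2.096 in Cd73N and stood at 26.6 and 16.7 FPKM in Cd73P. Cdkn1a had a difference of 1.62 in Cd73N and was at 3.60 and 1.20 FPKM in Cd73P. Aldh3a2, a fatty aldehyde dehydrogenase gene, had a difference of 0.77 and was at 11.3 and 4.38 FPKM in Cd73P. Cdh2 had a difference of 0.68 and was at 13.2 and 8.38 FPKM in Cd73P. The cone marker genes Gulo and Pde6h had differences of 0.70 and 0.71, and Pde6h was at 70.8 and 46.7 FPKM in Cd73P. Hist2h2be had a difference of 0.72 and was at 6.19 and 3.66 FPKM in Cd73P, and histone genes share sequence with copies. In the other direction, Gnat1, the rod transducin gene, had a difference of -0.78 in Cd73N and was at 2016 and 4999 FPKM in Cd73P. Sdc3, a syndecan gene, had a difference of -0.59 in Cd73N and was at 15.2 and 24.3 FPKM in Cd73P.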

How the results depend on the processing

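No paired analysis was possible because each group held 1 library and the labels carry no replicate numbers, and for the same reason no library could be left out. More genes were higher than lower under each of the 11 alternatives, and no named gene changed direction past the threshold. The cause of the changes below was not tested unless stated. Genes higher and lower numbered 316 and 38 at 2-fold. A minimum of 1 FPKM gave 1437 higher and a minimum of 30 FPKM gave 198 and 140, in both cases over another number of genes (12365 and 2769). Lower genes numbered 153 with a pseudocount of 5, 103 with median scaling and 109 with scaling to the FPKM sum, which shifted differences by 0.15. The 2 scalings were also over another number of genes (6899 and 6862). Of 298 named genes, calls were lost for 33 with the pseudocount of 5, 38 and 37 with the 2 scalings and 109 at 2-fold. With a minimum of 1 FPKM the medians were 0.72 for AP-1 factors, 0.70 for other immediate early genes and 1.44 for Id, Hes and Hey repressors. With a minimum of 30 FPKM they were 2.14 for other immediate early genes, 1.37 for collagens, laminins and basement membrane and 1.07 for metallothioneins and metal handling. For aldehyde dehydrogenases the value at that minimum was 2.06, the difference of Aldh1a1 alone. The Id, Hes and Hey median was 1.59 and 1.57 with the 2 scalings, which let 10 members pass the minimum in place of 7, and 0.57 without marker genes. The endothelial median turned from 0.83 to -0.23 with a mean of at least 10 FPKM and to -0.065 with a minimum of 1 FPKM. Calls at low level are limited by the unknown depth.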

Other observations

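Most called members were not followed on the chromosome by a member with the same call. Of 536 higher genes with a following member, 70 (13.1%) were followed by another higher gene, against 8.14% of the members with 1 row. Of 232 lower genes 23 (9.91%) were followed by another lower gene, against 3.54%. These shares are descriptions without a test, and marker genes are among the runs.

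The runs of 3 or more higher genes held neighbours of related function and of unrelated function, and the genes in them were chosen after their values were seen. On chromosome 19, from 20447924 to 20802046, Anxa1, Aldh1a1 and Aldh1a7 rose together. On chromosome 8, from 96676507 to 96704227, Mt3, Mt2 and Mt1 rose together. On chromosome 12, from 110270392 to 110899921, Begain rose from 8.29 to 32.4 FPKM and the noncoding RNA genes Meg3 and Rian rose from 16.7 to 81.8 FPKM and from 25.5 to 42.4 FPKM. Meg3 and Rian are maternally expressed RNAs of an imprinted domain. In Cd73P, Meg3 was at 0.88 and 0.55 FPKM and Rian at 1.41 and 0.67 FPKM. On chromosome 1, from 135793771 to 136086608, Optc, Prelp, Btg2 and Chi3l1 rose. Optc and Prelp encode small leucine-rich proteoglycans of the matrix, and their levels were 4.62 and 14.8 FPKM and 11.02 and 39.7 FPKM. The longest run held 5 genes on chromosome 7, from 86040813 to 86611159, namely Aen, Mfge8, Abhd2, the Müller marker Rlbp1 and Polg.

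The 2 runs of lower genes held 3 genes each. On chromosome 2, from 113835337 to 113878547, Gjd2, the noncoding RNA A530058N18Rik (28.9 and 10.5 FPKM) and Actc1 (20.9 and 7.69 FPKM) fell. Gjd2 and A530058N18Rik overlap, and without strand their reads cannot be told apart there. In Cd73P Gjd2 was at 48.2 and 53.5 FPKM. On chromosome 9, from 59465091 to 59797886, Parp6, Pkm2 and Nr2e3 fell. Nr2e3, a rod transcription factor gene and rod marker, was at 16.8 and 5.09 FPKM in Cd73N and at 1392 and 1117 FPKM in Cd73P.

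Small RNA rows were set apart from the members because FPKM of very short transcripts is unreliable. Of 179 such rows that met the minimum, 56 were listed at 0 in the wild-type library and 13 in the other Cd73N library.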
